A study of Oryctolagus cuniculus with 4 samples.

Results

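The cells described here were endothelial cells of the rabbit bladder that carried transcripts of BMX, of ATP2A3 or of both. They were called arterial-like after BMX and the arterial genes listed below. BMX encodes a Tec-family tyrosine kinase of arterial and endocardial endothelium, and ATP2A3 encodes SERCA3, a calcium pump of the endoplasmic reticulum. A kept cell had at least 500 unique molecular identifiers (UMIs, one per captured transcript), at least 200 genes and at most 15% of its UMIs in 13 mitochondrial genes. An endothelial cell had at least 3 of VWF, PECAM1, CDH5, EMCN, KDR, SELP, TM4SF1 and TM4SF18 detected, had less than 0.5% of its UMIs in DCN and LUM, and had no UMI of PTPRC, PROX1 or MZB1. It was arterial-like when BMX and ATP2A3 together reached 2 UMIs. Of 21945 kept cells, 5132 were endothelial by this rule, and 281 of those were arterial-like. These members were chosen by the measured levels of the genes of the rule, so the levels of those 15 genes are given as a description and were not tested.

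Arteries carry blood under high pressure and shear, and their endothelium is known for Notch signalling through DLL4, JAG1, HEY1 and HEY2, for gap junctions built from GJA5, for nitric oxide made by NOS3, and for the guidance ligand EFNB2. Venous endothelium is known instead for leukocyte adhesion through the selectins SELP and SELE, and capillary or sprouting endothelium for the vascular endothelial growth factor receptor KDR and the secreted proteoglycan ESM1. 
Tissue came from a 2-sample normal group (Normal_1 and Normal_2), taken from undisturbed New Zealand rabbit bladder mucosa, and a 2-sample injury group (Injury_1 and Injury_2), taken 10 days after a focal piece of the mucosa had been cut away. Adult rabbits were used, the labels name no genetic change or drug in either group, and each sample gave 1 droplet library in which transcripts were counted near their 3' end. The study calls the 2 samples of a condition biological replicates, and what spread lies between rabbits and what between preparations cannot be told apart. The label of the tissue is urothelium, yet 14.1% to 38.3% of the kept cells of a sample were endothelial by the rule.

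The arterial-like cells numbered 110 in Normal_1, 67 in Normal_2, 51 in Injury_1 and 53 in Injury_2. Their median depth was 6726, 7426, 5908 and 8096 UMIs per cell in that order, against 4744, 6783, 6422 and 6315 UMIs in the other 4851 endothelial cells. The deeper a cell, the more easily it reaches 2 UMIs, and the arterial-like cells were the deeper ones in 3 of 4 samples. Summed over its arterial-like cells, a sample held between 358048 and 788239 UMIs, and levels below are UMIs of a gene scaled to 1e+06 UMIs of that sum (CPM). Between 4 and 12 cell barcodes were shared by any 2 libraries. Normal_1 was the shallowest of the 4 libraries, with a median of 4813.5 UMIs per kept cell against 6755 to 7186 in the other 3.

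The 2 genes that set the limit did not contribute equally. BMX and ATP2A3 were both detected in 128 of the 281 cells (45.6%), ATP2A3 without BMX in 134 (47.7%) and BMX without ATP2A3 in 19 (6.76%). ATP2A3 stood at 373 CPM in Normal_1, 240 CPM in Normal_2, 433 CPM in Injury_1 and 352 CPM in Injury_2, and BMX at 121, 147, 134 and 114 CPM. Both ranges overlapped between the conditions. In the other endothelial cells, which can hold no more than 1 UMI of the pair, ATP2A3 stood between 4.73 and 8.61 CPM and BMX between 1.42 and 2.33 CPM.

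The other endothelial genes of the rule are given as levels. PECAM1, an adhesion protein of endothelial junctions, stood at 1812 CPM in Normal_1, 1254 in Normal_2, 1598 in Injury_1 and 1355 in Injury_2, above the 775 to 975 CPM of the other endothelial cells. TM4SF1, a tetraspan membrane protein and one of the markers proposed for these cells, stood between 260 and 458 CPM, above the 146 to 208 CPM of the other endothelial cells. VWF, the platelet-tethering glycoprotein, was at 265, 458, 1234 and 1142 CPM, below the 1584 to 3890 CPM of the other cells. SELP, the selectin stored with VWF in endothelial granules, was at 52.0, 14.7, 106 and 17.6 CPM, against 1088 to 1691 CPM. TM4SF18 was at 22.9 to 142 CPM against 226 to 323 CPM, and EMCN, a sialomucin of veins and capillaries, at 73.5 to 156 CPM against 112 to 161 CPM. KDR was at 55.6 to 161 CPM against 74.1 to 142 CPM, and CDH5, the endothelial cadherin, at 159 to 284 CPM against 133 to 177 CPM. For EMCN, KDR and CDH5 the ranges of the 2 populations overlapped, and for PECAM1, TM4SF1, VWF, SELP and TM4SF18 they did not.

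The limit of 2 UMIs cut through a graded pattern. Of the members, 114 cells (40.6%) held exactly 2 UMIs of the pair, 48 held 3 and 119 held 4 or more, and 276 endothelial cells with exactly 1 UMI lay just outside. PCSK5, a proprotein convertase that cleaves growth factors and adhesion proteins, stood at 129 CPM over the cells with 1 UMI of the pair, 210 CPM over those with 2 and 335 CPM over those with 3 or more, against 17.7 CPM over the 4575 cells with none. CGNL1, a junction-associated cytoskeletal protein, followed the same order at 70.1, 139, 188 and 14.6 CPM. SELP ran the other way, with 200 CPM at 1 UMI, 112 CPM at 2 UMIs, 4.94 CPM at 3 or more and 1380 CPM at none. The cells just outside the limit thus lay between the members and the bulk of the endothelium in each of these genes.

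**Figure D1:**
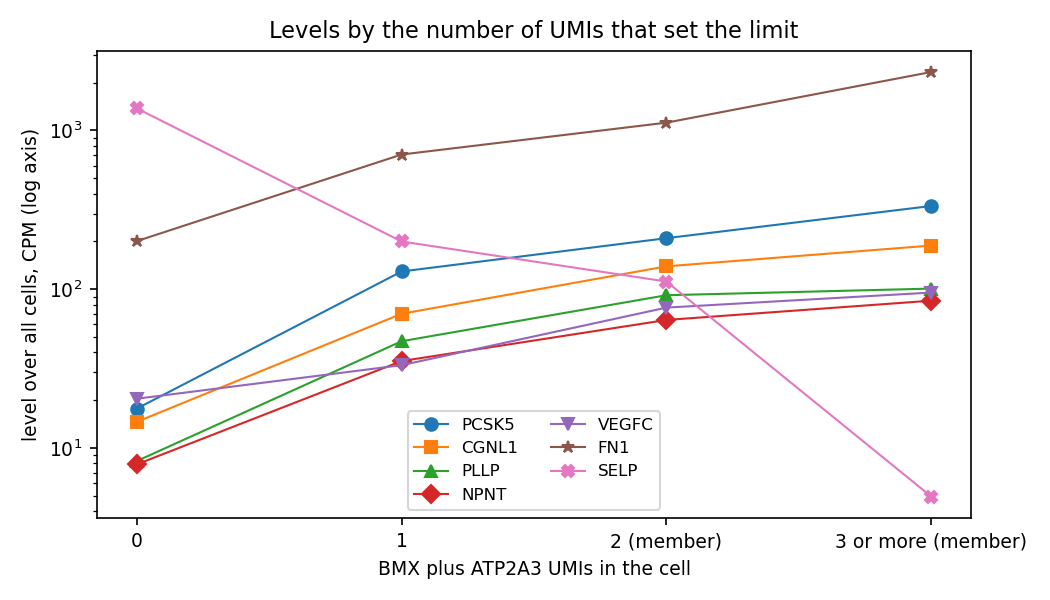
Level of 7 genes (CPM, log axis) over all endothelial cells with 0, 1, 2 or 3 or more UMIs of BMX plus ATP2A3, pooled over the 4 samples; cells with 2 or more are the members. PCSK5 goes from 17.7 to 335 CPM from left to right, and SELP from 1380 to 4.94 CPM.

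The members also varied among themselves. By their other transcripts, 44 of the 281 (15.7%) held at least 2 UMIs of KDR plus ESM1 and more of these than of SELP plus SELE (14, 9, 6 and 15 cells in Normal_1, Normal_2, Injury_1 and Injury_2), and 13 leaned to SELP plus SELE in the same way. Cells with both BMX and ATP2A3 held PCSK5 at 360 CPM and CGNL1 at 227 CPM, and cells with ATP2A3 alone held them at 246 and 106 CPM. GJA5, the connexin of arterial gap junctions, was at 15.8 CPM in the first set and 14.7 CPM in the second. FN1, the matrix protein fibronectin, was at 2528 CPM with both genes and at 1405 CPM with ATP2A3 alone. The 19 cells with BMX alone are too few for a value per sample.

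The limit was not met by endothelial cells alone. Over all kept cells, 441 held at least 2 UMIs of BMX plus ATP2A3, and 160 of these fell outside the endothelial rule, 135 of them with too few endothelial markers and 68 with PTPRC, the leukocyte phosphatase CD45 (a cell can fail in several ways). Leukocyte transcripts stood low among the members themselves. The 13 leukocyte markers in the files summed to 29.2 to 75.4 CPM in the arterial-like cells and to 220 to 460 CPM in the other endothelial cells, with C1QA, C1QC and LYZ at 0 in the members of every sample. The 4 glial markers were all at 0 in the members, and lymphatic PROX1 (excluded by rule), CCL21 and MMRN1 were at 0 as well. Mural cell markers were present at 119 to 436 CPM in sum over 8 genes, against 62.0 to 229 CPM in the other endothelial cells, fibroblast markers at 329 to 2105 CPM over 6 genes against 231 to 1856 CPM, and urothelial markers at 57.2 to 185 CPM over 9 genes, 4 of them at 0. Cells with mural or urothelial transcripts made up 37 of the 281 members, or 9.09%, 11.9%, 23.5% and 13.2% in Normal_1, Normal_2, Injury_1 and Injury_2. In the other endothelial cells they made up 5.71%, 7.36%, 7.81% and 4.28%, less than among the members of every sample, and Injury_1 held the highest share. Their part in the differences below was not tested beyond the alternatives that leave these cells out. Among the members, 13 were among the 5% of cells with the highest doublet score of their sample.

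The first comparison asked how large the arterial-like share was. Of the endothelial cells, it was 6.66% in Normal_1 (95% Wilson interval 5.55% to 7.96%), 4.22% in Normal_2 (3.34% to 5.32%), 4.58% in Injury_1 (3.5% to 5.97%) and 6.81% in Injury_2 (5.25% to 8.80%), where the intervals cover counting error only. The samples of each condition lay on both sides of those of the other, and the share was 5.44% ± 1.72 in normal and 5.70% ± 1.58 in injured bladder (SD, n = 2). The difference of 0.256 percentage points gave p = 0.667 in a two-sided exact permutation test, which cannot go below 0.333 with 2 samples against 2. Of all kept cells, the arterial-like share was 2.55%, 1.11%, 0.839% and 0.959% in the same order, with both injured samples below both normal ones. That share was 1.83% ± 1.02 in normal and 0.899% ± 0.0848 in injured bladder (SD, n = 2; exact permutation p = 0.333). Endothelial cells as a whole made up 38.3% and 26.3% of the kept cells in the normal and 18.3% and 14.1% in the injured samples. A lower share of all kept cells was therefore not particular to the arterial-like cells. When each cell was thinned to 2000 UMIs, the share of the endothelial cells was 1.51%, 0.679%, 1.61% and 2.00%, and its level therefore depends on depth. Both injured samples then lay above both normal ones, from 20, 8, 16 and 13 arterial-like cells. The difference was 0.713 percentage points (exact permutation p = 0.333, the lowest this test can give). The difference in the share of all kept cells was then -0.0508 percentage points, and it was -0.213 without Normal_1 beside -0.934 with all samples.

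**Figure D2:**
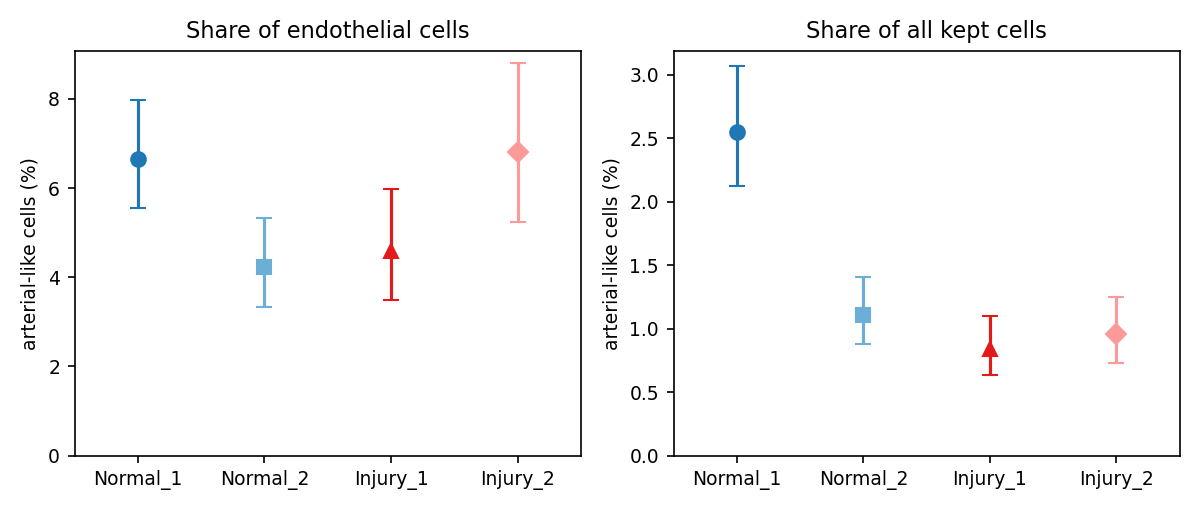
Arterial-like cells as a percentage of the endothelial cells (left) and of all kept cells (right) in each sample, with 95% Wilson intervals that cover counting error only. The left panel runs from 4.22% to 6.81% with the conditions interleaved, and in the right panel Normal_1 stands highest at 2.55%.

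The makeup of the other endothelial cells differed between the normal and the injured samples, a difference that was not tested. The SELP/SELE cells, which held at least 2 UMIs of SELP plus SELE and more of these than of KDR plus ESM1, were 51.6% and 34.9% of the endothelial cells in the normal and 72.4% and 62.5% in the injured samples. The KDR/ESM1 cells, defined the other way round, were 19.5% and 31.2% in the normal and 5.83% and 14.4% in the injured samples. These 2 populations, of 2700 and 994 cells, served as the closest neighbours of the arterial-like cells.

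The second comparison asked which genes outside the rule set the arterial-like cells apart from the other endothelial cells of the same sample. Counts were summed per sample and population and fitted with the quasi-likelihood test of edgeR, with the sample as a block and Benjamini-Hochberg adjustment over all genes, and log2 fold changes are given with their standard error. Of 6099 genes tested, 414 were higher (6.79%) and 549 were lower (9%) at an adjusted p of at most 0.05. Since BMX and ATP2A3 were read in the same cells and the limit was set with values of these cells known, these counts describe the gated cells and are not independent support for the population. Without the sample as a block, 269 genes passed.

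PCSK5 stood at 186 CPM in Normal_1, 255 in Normal_2, 402 in Injury_1 and 427 in Injury_2, against 23.5 to 26.8 CPM in the other endothelial cells. All 4 arterial-like values lay above all 4 others, and the level was 10.8-fold higher (log2 3.43 ± 0.17). CGNL1 stood at 176, 162, 165 and 178 CPM against 14.5 to 23.2 CPM (log2 3.03 ± 0.16). FN1 stood at 553, 1378, 4223 and 3104 CPM against 89.7 to 405 CPM (log2 2.90 ± 0.16). FN1 was thus both the most abundant of these 3 genes and the one that varied most between samples, with the injured samples the higher ones in both populations.

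Part of the difference in PCSK5 lay in how many cells had any transcript. PCSK5 was detected in 59.1%, 73.1%, 90.2% and 75.5% of the arterial-like cells of Normal_1, Normal_2, Injury_1 and Injury_2, and in 9.14% to 12.2% of the other endothelial cells. In leukocytes with at least 2 UMIs of PTPRC, which should lack it and had median depths of 5041 to 6075 UMIs, PCSK5 was detected in 1.76% to 5.00% of cells. With each cell thinned to 2000 UMIs, the share was 28.7% to 53.7% in the arterial-like cells, 4.28% to 4.55% in the other endothelial cells and 0.853% to 1.84% in the leukocytes. The order of the 3 populations was therefore the same at equal depth of reading PCSK5. Membership was still set at full depth, so the effect of depth on the limit itself was not removed.

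The 15 genes with the largest rise under the naming rule (named in the files, averaging 20 CPM or more where higher, and moving one way in all 4 samples) also held secreted and matrix proteins. NPNT, the basement membrane ligand nephronectin, was at 64.2 to 88.8 CPM against 5.81 to 15.6 CPM (log2 2.82 ± 0.21), and HMCN1, the matrix protein hemicentin, at 14.7 to 33.5 CPM against 0.466 to 3.85 CPM (3.35 ± 0.58). SPOCK2, a matrix proteoglycan, and LAMA3, a laminin chain, differed by 3.33 ± 0.33 and 2.78 ± 0.40. Signalling genes among the 15 were TMEM100 (3.55 ± 0.49), a membrane protein induced by BMP9 in arterial endothelium, PLCG2 (3.11 ± 0.28), a phospholipase downstream of Tec-family kinases in immune cells, and PTGER4 (2.83 ± 0.54), a prostaglandin E receptor. The rest were SULT1C2 (4.24 ± 0.38), a sulfotransferase, MPPED2 (3.82 ± 0.38), a phosphodiesterase-domain protein, PLLP (3.06 ± 0.21), the membrane protein plasmolipin, ANK3 (2.81 ± 0.38), the membrane anchor ankyrin G, and CNTN2 (2.55 ± 0.37), a contactin. ANK3 rested heavily on 1 sample, with 62 of its 81 UMIs in Normal_1.

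Of 32 arterial genes listed, 18 were in the files under their symbol and 15 passed the filter on low counts. Of those 15, 11 were higher in the arterial-like cells, 1 was lower and 3 did not pass, with a median log2 fold change of 1.22 beside -0.01 over all genes tested. Summed over the 18 genes, the arterial-like cells held 1204, 1505, 2410 and 1896 CPM in Normal_1, Normal_2, Injury_1 and Injury_2. The other endothelial cells held 1261, 1811, 1772 and 1084 CPM. The sum was thus the lower one in the arterial-like cells of both normal samples and the higher one in both injured samples. It weighs abundant genes most, and MGP, the 1 gene called lower, alone held 392 to 1179 CPM in the other endothelial cells. A sum without MGP was not taken, so the sum does not stand for the 11 higher genes. GJA5 was detected with 5, 20, 8 and 3 UMIs in Normal_1, Normal_2, Injury_1 and Injury_2, or 6.34, 32.7, 22.3 and 6.6 CPM, against 0.811 to 1.86 CPM in the other endothelial cells (log2 3.34 ± 0.53). SEMA3G, a semaphorin secreted by arterial endothelium, stood at 8.88, 13.1, 14 and 17.6 CPM against 0.466 to 1.38 CPM (3.67 ± 0.46), and FBLN5, an elastic fibre protein, at 4.4 to 14 CPM against 0.116 to 0.787 CPM (3.59 ± 0.70). These 3 genes were low in absolute terms, yet no sample of one population reached the range of the other. DKK2 had no UMI in the arterial-like cells, and MGP, a calcification inhibitor of the arterial wall, was lower (-1.48 ± 0.20) at 88.0 to 567 CPM against 392 to 1179 CPM.

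Of 10 Notch genes tested, 4 were higher, none was lower and 6 did not pass, with a median log2 fold change of 0.46. HEY1, a transcriptional repressor induced by Notch, stood at 112 CPM in Normal_1, 198 in Normal_2, 318 in Injury_1 and 361 in Injury_2, against 58.5, 106, 139 and 113 CPM in the other endothelial cells of the same samples. Within each sample the arterial-like value was the higher one (1.01 ± 0.13), although the ranges of the 2 populations overlapped. HEY2, its close relative, was higher by 2.19 ± 0.43, and the ligands DLL4 and JAG1 by 0.76 ± 0.21 and 0.54 ± 0.12. EFNB2, the arterial ephrin, was higher by 0.61 ± 0.19. HES1, another Notch target, was at 277, 391, 975 and 893 CPM against 305, 294, 508 and 464 CPM and did not pass (0.37 ± 0.16).

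Genes of vessel tone showed a mixed picture. NOS3, the endothelial nitric oxide synthase, was at 128, 284, 221 and 216 CPM against 58.8 to 102 CPM, 2.36-fold higher (log2 1.24 ± 0.13), with no overlap between the populations. Of 11 calcium and nitric oxide genes tested, 6 were higher and 1 was lower. Besides NOS3, these were STIM1, a sensor of stored calcium (1.15 ± 0.20), ITPR2, a calcium release channel (0.51 ± 0.13), KCNJ2, an inward rectifier potassium channel (1.33 ± 0.38), ATP2A2, the widely expressed SERCA2 pump (0.38 ± 0.11), and CAV1, the scaffold of caveolae (0.30 ± 0.09). STIM2, a second calcium sensor, was the lower one (-0.92 ± 0.16). The vasoconstrictor peptide gene EDN1 (0.78 ± 0.13) and its receptor EDNRB (0.87 ± 0.13) were higher. CALCRL (-0.96 ± 0.16) and RAMP2 (-0.45 ± 0.08), which together form the adrenomedullin receptor, were lower, and the other 5 of 9 vasoactive genes did not pass.

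Growth factors and their receptors differed in both directions. VEGFC, a ligand of the VEGF family, stood at 45.7, 67.0, 151 and 143 CPM against 8.84, 13.6, 41.0 and 31.3 CPM (1.99 ± 0.17), and VEGFA at 53.1 to 94.6 CPM against 18.1 to 35.3 CPM (1.46 ± 0.22). NRP2, a co-receptor for VEGFC and semaphorins found on veins and lymphatics, was lower (-1.30 ± 0.22). TEC, the founding member of the kinase family of BMX, was also lower (-1.38 ± 0.36), with 1 to 5 UMIs per sample in the arterial-like cells. Of 8 genes of this list tested, 2 were higher, 2 were lower and 4 did not pass.

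Matrix genes differed in both directions. Of 17 tested, 6 were higher, namely FBN1, the microfibril protein fibrillin (1.63 ± 0.13), LTBP1, a TGF-beta binding protein (1.02 ± 0.19), FBLN2 and FBLN5, elastic fibre proteins (1.22 ± 0.20 and 3.59 ± 0.70), TIMP3, a matrix-bound protease inhibitor (1.14 ± 0.10), and LAMA4, an endothelial laminin chain (0.50 ± 0.15). The 3 lower ones were MGP, the basement membrane linker NID2 (-1.01 ± 0.28) and the basement membrane proteoglycan HSPG2 (-0.80 ± 0.22). The remaining 8 did not pass. The median over the 17 genes was -0.18, beside -0.01 over all genes.

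Of 6 venous genes tested, 4 were lower and none was higher. LIFR, a cytokine receptor, stood at 17.8, 11.4, 25.1 and 11 CPM against 48.6 to 95.9 CPM (-2.29 ± 0.23). IL1R1, an interleukin-1 receptor, had 3 UMIs in all arterial-like cells together, against 4.27 to 16.6 CPM. SELE, the cytokine-induced selectin, was at 46.9, 6.54, 44.7 and 0 CPM against 253 to 497 CPM (-3.95 ± 0.64), and the fourth gene was NRP2. SELE and SELP are the genes that set the SELP/SELE cells apart.

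CXCL8, the neutrophil chemokine interleukin-8, stood at 34.3 CPM in Normal_1, 199 in Normal_2, 235 in Injury_1 and 165 in Injury_2, against 318, 1110, 1895 and 773 CPM in the other endothelial cells. It was the lower one within each sample and in both conditions, by 7.32-fold (log2 -2.87 ± 0.14). IL1A, a second inflammatory cytokine, was lower (-2.06 ± 0.24), and CSF3, the granulocyte growth factor, had 2 UMIs in all arterial-like cells against 15.3 to 29.7 CPM. Of 10 genes of adhesion and inflammation tested, 4 were lower (SELE among them) and none was higher. Of 4 interferon-induced genes, 3 were lower, with IFIT2 at 122, 14.7, 249 and 22.0 CPM against 586, 60.1, 729 and 133 CPM (-2.19 ± 0.15). For IFIT2 the difference between Normal_1 and Normal_2 was larger than that between the populations, and the arterial-like value was the lower one in each of the 4 samples.

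The largest falls of single genes had mixed functions. IGF1, insulin-like growth factor 1, had 4 UMIs in Normal_1 and none in the other 3 samples, against 26.7 to 196 CPM in the other endothelial cells. NT5E, the ecto-nucleotidase CD73, was at 0 to 5.59 CPM against 18.1 to 89.9 CPM (-4.62 ± 0.34), and ADH6, an alcohol dehydrogenase, at 1.63 to 58.4 CPM against 84.1 to 781 CPM (-4.35 ± 0.33). CADM3, a cell adhesion molecule, had 3 UMIs over all members. Others under the naming rule were S100A9, a calcium-binding protein of neutrophils (-5.32 ± 0.35), SLAMF1, a lymphocyte receptor (-3.93 ± 0.38), ITLN1, a lectin (-3.76 ± 0.42), CSF3 and SELE. S100A9 stood at 107 to 273 CPM in the other endothelial cells and is a neutrophil marker, and the part of neutrophil transcripts in that difference was not tested.

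**Figure D3:**
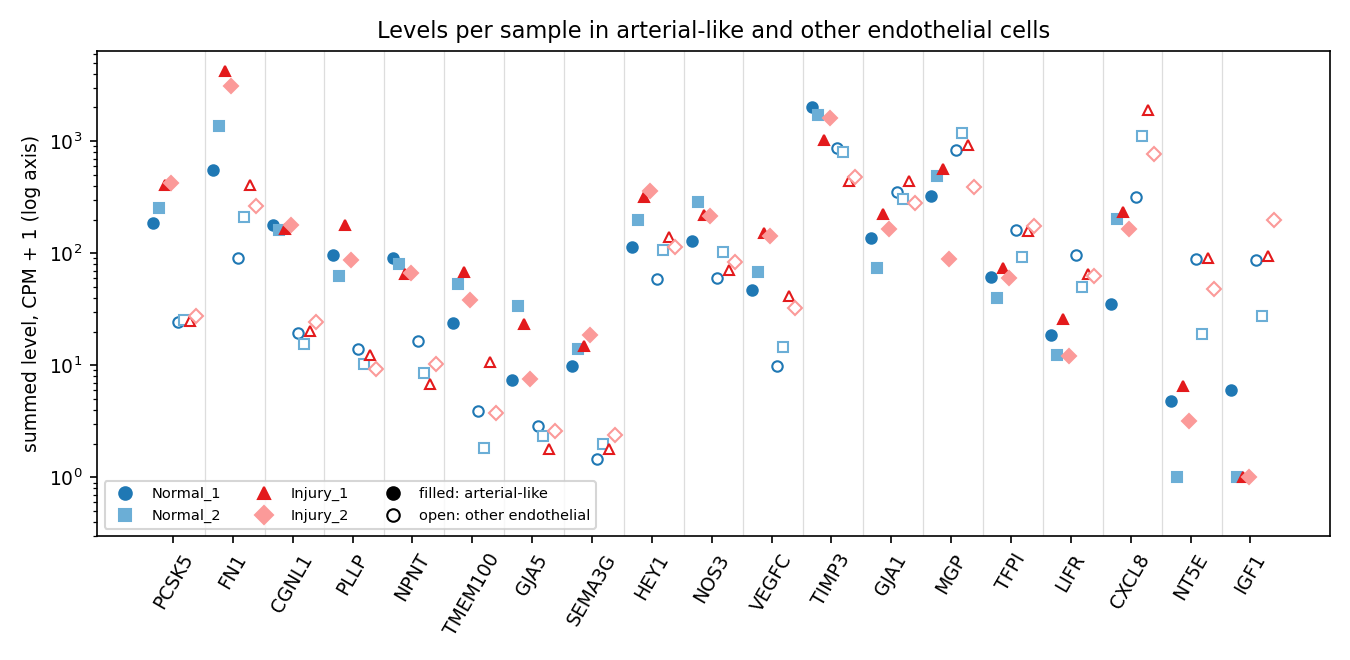
Level per sample (CPM + 1, log axis) of 19 genes outside the rule in arterial-like cells (filled) and in other endothelial cells (open), with normal samples in blue and injured samples in red. PCSK5 separates the populations widely (186 to 427 against 23.5 to 26.8 CPM), HEY1 only within each sample, and the genes from GJA1 to IGF1 are lower in the arterial-like cells.

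Of 9 junction genes tested, GJA5 was higher and GJA1, the widely expressed connexin 43, was lower (-1.44 ± 0.17) at 73.5 to 223 CPM against 283 to 438 CPM. TFPI, the tissue factor inhibitor, was lower (-1.51 ± 0.15), and it and NOS3 were the called genes among 4 shear and anticoagulant genes. COL15A1, a basement membrane collagen of capillaries, was lower (-2.26 ± 0.25), while BTNL9, a butyrophilin of capillary endothelium, was higher (1.86 ± 0.25), and the other 4 capillary genes did not pass. Of 12 genes of the TGF-beta and BMP pathway, the BMP receptor BMPR2 was higher (0.45 ± 0.14) and SMAD1 and SMAD7 were lower (-0.61 ± 0.16 and -0.60 ± 0.14). Of 6 mural and 6 cell cycle genes none passed in edgeR and 2 each had an unadjusted p under 0.05, and DESeq2 called 1 mural gene.

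Genes of the dissociation response differed as well. Of 10 tested, the immediate early genes ATF3 (0.86 ± 0.18), BTG2 (0.81 ± 0.15) and EGR1 (0.54 ± 0.17) were higher, IER3 was lower (-0.79 ± 0.07) and 6 did not pass, with 8 positive values and a median of 0.52. The median share of mitochondrial UMIs was 9.40%, 9.86%, 7.39% and 7.57% in the arterial-like cells of Normal_1, Normal_2, Injury_1 and Injury_2, and 8.43%, 8.78%, 6.33% and 7.10% in the other endothelial cells. It was thus the higher one in the arterial-like cells of every sample. With a mitochondrial limit of 10%, 746 genes passed, and 697 of them were among the 963 of the main fit. Of the named genes, 60 kept their call and 15 lost it. The part of mitochondrial share in the differences above was not tested beyond this alternative.

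Over the 8 sums, the genes whose log2 levels followed BMX most closely were CGNL1 (Pearson r = 0.994), ATP2A3 (0.991), SYT11 (0.982), NPNT (0.981) and MALL (0.981). The 8 points are 4 samples with 2 populations each, which were split by BMX and ATP2A3 themselves, and the values are a description. SYT11, a synaptotagmin, stood at 48.4 to 83.8 CPM in the arterial-like and 14.6 to 16.5 CPM in the other endothelial cells. MALL, a membrane protein of the MAL family, stood at 22.3 to 26.4 CPM against 11.6 to 13.6 CPM.

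The third comparison set the arterial-like cells against each neighbour in turn. Against the SELP/SELE cells, 506 of 5701 genes were higher (8.88%) and 646 were lower (11.3%). Against the KDR/ESM1 cells, 298 of 4213 genes were higher (7.07%) and 314 were lower (7.45%), or 115 in all without the sample as a block and 356 in all with DESeq2. Both comparisons use the same arterial-like sums, so their values are set side by side and were not tested against each other. Genes that defined the neighbours were left out of these counts.

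The leading genes differed from both neighbours. PCSK5 stood at 7.17 to 9.29 CPM in the SELP/SELE cells and at 29.3 to 67.8 CPM in the KDR/ESM1 cells, and arterial-like cells were higher by 4.89 ± 0.22 and 2.72 ± 0.14 on the log2 scale. PLLP was higher by 4.34 ± 0.26 and 2.52 ± 0.21, FN1 by 3.37 ± 0.24 and 2.54 ± 0.11, and TMEM100 by 3.25 ± 0.47 and 5.50 ± 0.72. NOS3 was higher by 1.31 ± 0.13 and 1.02 ± 0.15, and VEGFC by 1.66 ± 0.18 and 2.83 ± 0.57. For PCSK5, PLLP and FN1 the KDR/ESM1 cells lay between the SELP/SELE cells and the arterial-like cells in mean level.

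Of the 11 arterial genes tested against the KDR/ESM1 cells, 5 were higher (PLLP, JAG1, FBLN2, HEY1 and VEGFC), none was lower and 6 did not pass, with a median log2 fold change of -0.19. Against the SELP/SELE cells, 9 of 14 were higher and 1 was lower, with a median of 1.49. Of 7 Notch genes tested against the KDR/ESM1 cells, 2 were higher and the protease gene ADAM10 was lower (-0.58 ± 0.12), with a median of 0.05.

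The Notch ligand DLL4 and EFNB2 differed from 1 neighbour. DLL4 stood at 27.9, 42.5, 33.5 and 52.8 CPM in the arterial-like cells of Normal_1, Normal_2, Injury_1 and Injury_2, at 6.07 to 14.7 CPM in the SELP/SELE cells and at 38.1 to 45.3 CPM in the KDR/ESM1 cells. Its log2 fold change was 1.61 ± 0.25 against the first and -0.20 ± 0.21 against the second, which did not pass. EFNB2 likewise gave 1.10 ± 0.20 and -0.19 ± 0.17. EDNRB gave 1.71 ± 0.13 and -0.02 ± 0.11, and VEGFA 2.50 ± 0.24 and 0.51 ± 0.20. JAG1 was placed the other way round, at 0.34 ± 0.17 against the SELP/SELE cells, which did not pass, and 0.96 ± 0.11 against the KDR/ESM1 cells. HEY1 was higher than in either, by 1.38 ± 0.13 and 0.54 ± 0.13.

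SEMA3G and GJA5 were nearly absent from the SELP/SELE cells. No UMI of SEMA3G was counted over the 2700 SELP/SELE cells, and GJA5 reached 0.276 CPM in Injury_2 and 0 in the other 3 samples. In the KDR/ESM1 cells, SEMA3G stood at 0.577 and 0.246 CPM in the normal and at 7.54 and 7.68 CPM in the injured samples. These genes were too low to be tested against the KDR/ESM1 cells.

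Basement membrane genes marked the contrast with the KDR/ESM1 cells. COL4A1, a chain of type IV collagen, stood at 166, 149, 307 and 398 CPM in the arterial-like cells and at 879 to 1320 CPM in the KDR/ESM1 cells (-2.17 ± 0.15), and against the SELP/SELE cells its log2 fold change was -0.87 ± 0.22. COL4A2 (-1.78 ± 0.14), the laminin chain LAMB1 (-1.94 ± 0.21), HSPG2 (-1.55 ± 0.21), NID2 (-1.69 ± 0.28) and the collagen-binding protein SPARC (-1.28 ± 0.18) were also lower than in the KDR/ESM1 cells. FBN1, LTBP1 and FBLN2 were higher than there, by 2.16 ± 0.17, 2.19 ± 0.26 and 2.23 ± 0.28. Of 14 matrix genes tested against the KDR/ESM1 cells, 3 were higher and 6 were lower, and of 16 tested against the SELP/SELE cells, 6 were higher and 2 were lower.

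CXCL8 and LIFR were lower than in both neighbours, with log2 fold changes of -3.13 ± 0.16 and -2.40 ± 0.13 for CXCL8 and of -2.54 ± 0.23 and -1.80 ± 0.28 for LIFR. COL15A1 gave -2.01 ± 0.25 and -3.05 ± 0.22. BTNL9 was higher than in the SELP/SELE cells (4.76 ± 0.41), while against the KDR/ESM1 cells its value was 0.08 ± 0.27.

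The fourth comparison asked what differed between injured and normal arterial-like cells, a contrast that the rule did not use. Of 3958 genes tested in edgeR, 2 were higher in the injured samples (0.0505%) and 0 were lower (0%), and 315 genes had an unadjusted p under 0.05. DESeq2 on the same sums called 11 higher and 2 lower. With 51 to 110 cells per sample and 2 samples a condition, a gene that did not pass is not thereby shown to be equal. Without Normal_1, Normal_2, Injury_1 or Injury_2 the count was 178, 222, 11 or 29, each from a lone sample assumed to vary like the other condition, and with a mitochondrial limit of 10% it was 0, with 283 genes at an unadjusted p under 0.05.

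CCL2, a chemokine that attracts monocytes, rose. It stood at 45.7 CPM in Normal_1 and 45.8 CPM in Normal_2, and at 1058 CPM in Injury_1 and 601 CPM in Injury_2, from 36, 28, 379 and 273 UMIs. Both injured values lay far above both normal ones, by 16.6-fold (log2 4.05 ± 0.37, edgeR adjusted p = 0.00775). The log2 fold change lay between 2.14 and 5.63 over 14 alternatives, and the edgeR call was lost when cells with 1 UMI of the pair were included (adjusted p = 0.510), when the mitochondrial limit was 10% (0.404), without high doublet scores (0.174) and without cells that held mural or urothelial transcripts (0.110).

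CCL2 was also higher in the injured samples among other cells of the bladder. In the other endothelial cells it stood at 695 and 716 CPM in the normal and 2963 and 1450 CPM in the injured samples, and in cells with DCN and LUM at 190 and 238 against 1223 and 896 CPM. In PTPRC cells it was at 413 and 1161 against 583 and 414 CPM. The arterial-like cells held the lowest CCL2 level of these populations in both normal samples.

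CCN1, a secreted matricellular protein also known as CYR61, rose as well. It stood at 208 CPM in Normal_1, 286 in Normal_2, 1547 in Injury_1 and 1857 in Injury_2, without overlap (6.29-fold, log2 2.65 ± 0.31, edgeR adjusted p = 0.0306). The call was lost with cells of 1 UMI of the pair included (edgeR adjusted p = 0.401), with a mitochondrial limit of 10% (0.135) and without the 44 cells that leaned to KDR and ESM1 (0.0613). In the other endothelial cells it was at 548 and 1083 CPM against 2118 and 1498 CPM, and in the DCN and LUM cells at 1532 and 3180 against 3850 and 4781 CPM. CCN1 is an immediate early gene, and the 10 genes of the dissociation response list summed in arterial-like cells to 15911 and 11289 CPM in the normal and 21517 and 18182 CPM in the injured samples. Of those 10 genes none passed in edgeR, 7 had an unadjusted p under 0.05 and DESeq2 called 2, and 9 had a positive log2 fold change, with a median of 1.27. Their part in the CCN1 difference was not tested.

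Genes that did not pass but separated the conditions are given by their values. FOS, an immediate early transcription factor, stood at 171 and 168 against 595 and 605 CPM (log2 1.70 ± 0.26, edgeR adjusted p = 0.17). HES1 stood at 277 and 391 against 975 and 893 CPM (1.35 ± 0.31, adjusted p = 0.34). VWF, a gene of the rule, was at 265 and 458 against 1234 and 1142 CPM, and FN1 at 553 and 1378 against 4223 and 3104 CPM (1.77 ± 0.48, adjusted p = 0.44). Each of these 4 genes was higher in both injured samples than in both normal ones.

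The arterial genes gave no call. None of the 11 arterial genes tested passed in edgeR, 5 had an unadjusted p under 0.05 and DESeq2 called 1, with a median log2 fold change of 0.63 beside -0.03 over all genes. CGNL1 was at 176 and 162 against 165 and 178 CPM (-0.10 ± 0.28) and NOS3 at 128 and 284 against 221 and 216 CPM (-0.06 ± 0.41), with the conditions interleaved. PCSK5 was at 186 and 255 against 402 and 427 CPM (0.78 ± 0.29, edgeR adjusted p = 0.54) and HEY1 at 112 and 198 against 318 and 361 CPM (1.00 ± 0.35, adjusted p = 0.52), with both injured samples above both normal ones. Of 13 matrix genes none passed in edgeR or DESeq2 and 5 had an unadjusted p under 0.05, and of 10 calcium and nitric oxide genes none passed in either and none had such a p.

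The fifth comparison asked whether the injury difference itself differed between arterial-like and other endothelial cells, by the population by condition term of a fit over all 8 sums. Of 6738 genes tested, the arterial-like difference was the larger one in 32 (0.475%) and the smaller one in 31 (0.46%), 63 in all, and DESeq2 called 21. With 2 residual degrees of freedom among the samples, the small p-values rest on a spread that edgeR shares across genes. As the share of KDR/ESM1 cells was lower in both injured samples than in both normal ones, the term was also fitted against each neighbour alone. This alternative was chosen after the data had been seen.

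UNC5B, a netrin receptor of arterial and sprouting endothelium, passed in this term in all 8 alternatives run. It stood at 76.1 CPM in Normal_1, 85.0 in Normal_2, 257 in Injury_1 and 295 in Injury_2 in the arterial-like cells, and at 64.8, 74.0, 37.8 and 56.7 CPM in the other endothelial cells. The injured samples were thus the higher ones in the arterial-like cells and the lower ones in the others, with a difference of differences of 2.29 ± 0.27 on the log2 scale (edgeR adjusted p = 1.6e-09). Against the SELP/SELE cells alone, which held 21.2, 26.8, 11.8 and 11.9 CPM, it was 2.68 (adjusted p = 4.6e-06), and against the KDR/ESM1 cells alone, which held 165, 127, 209 and 200 CPM, it was 1.34 (adjusted p = 0.00073). Within the arterial-like cells UNC5B gave a log2 fold change of 1.65 ± 0.30, which did not pass on its own in edgeR (adjusted p = 0.19).

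CCL2 and VCAM1, an adhesion molecule for lymphocytes and monocytes, had the larger relative difference in the arterial-like cells. For CCL2 the difference of differences was 2.51 ± 0.18 (edgeR adjusted p = 8.4e-19), and against the KDR/ESM1 cells alone it did not pass (3.05, adjusted p = 0.084). VCAM1 stood at 39.3, 14.7, 531 and 132 CPM in the arterial-like cells and at 295, 183, 947 and 355 CPM in the others (2.00 ± 0.27, adjusted p = 2.3e-07), and against the KDR/ESM1 cells alone it did not pass (1.14, adjusted p = 0.96). In absolute level both genes stayed lower in the arterial-like cells of every sample.

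FABP5, a fatty acid binding protein, differed the other way. It stood at 416, 1567, 1265 and 1025 CPM in the arterial-like cells, with Normal_2 the highest, and at 190, 437, 1809 and 1732 CPM in the other endothelial cells. The injured samples were the higher ones in the others and lay within the normal range in the arterial-like cells (-2.20 ± 0.18, edgeR adjusted p = 6.6e-08), and against the KDR/ESM1 cells alone the term was -3.26 and did not pass (adjusted p = 0.58). ESM1 gave 3.19 ± 0.33, from 44.4, 21.2, 36.3 and 117 CPM in the arterial-like and 331, 359, 38.2 and 125 CPM in the other endothelial cells.

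**Figure D4:**
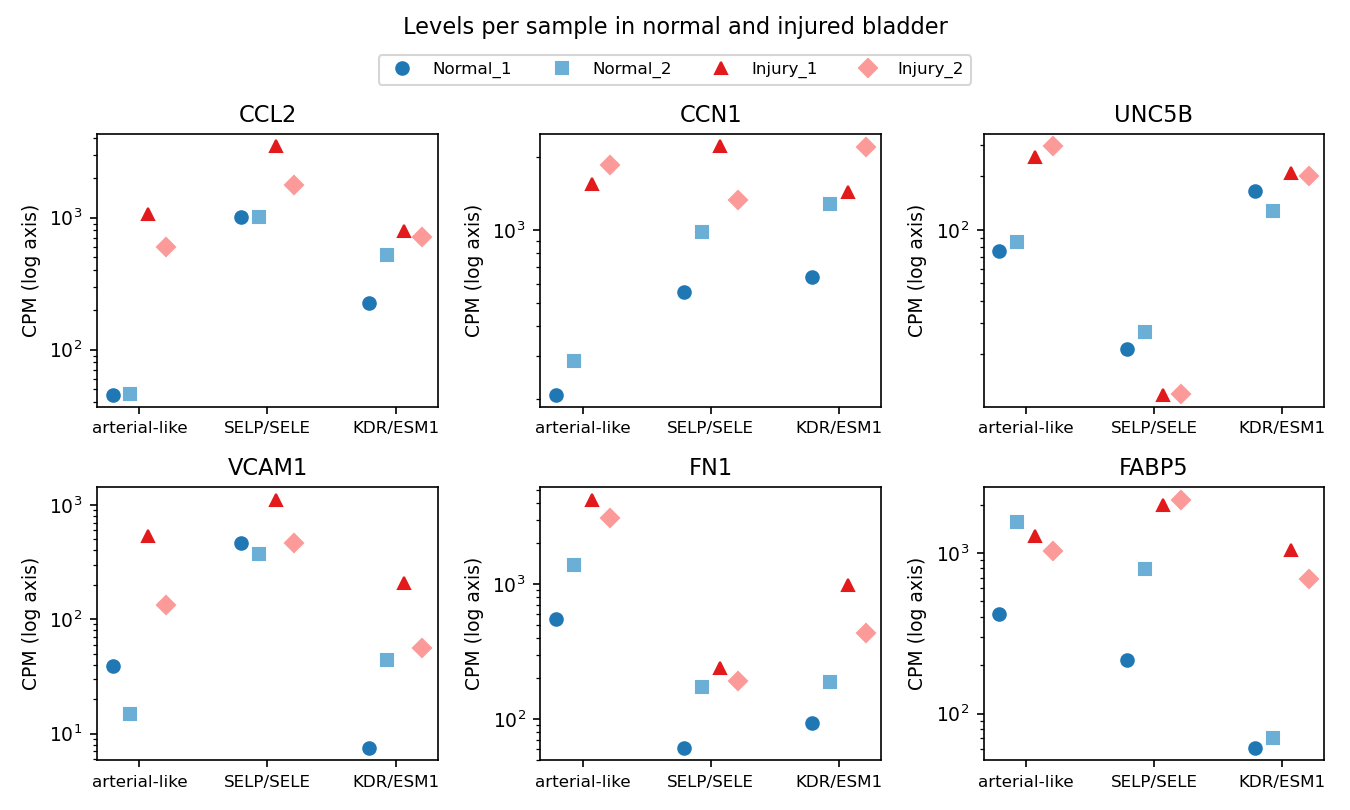
Level per sample (CPM, log axis) of 6 genes in arterial-like, SELP/SELE and KDR/ESM1 cells, with normal samples in blue and injured samples in red. In the arterial-like cells CCL2 goes from 45.7 and 45.8 to 1058 and 601 CPM and UNC5B from 76.1 and 85.0 to 257 and 295 CPM, while UNC5B is lower after injury in the SELP/SELE cells.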

How the data were processed

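Cells of 4 rabbit bladder mucosa samples were profiled by droplet RNA sequencing (10x 3' chemistry). The deposited matrices hold raw UMI counts per gene and barcode, which the authors made with Cell Ranger 6.0.1 (version per the file headers), and the genome build is not given in the sources used here. Of 18475 features, 9769 have a symbol, so a gene without a match is not described.

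Cells were kept and grouped by the rules in the report, and groups of samples were taken from the labels. Counts were summed per sample and population and tested with edgeR 4.0.16 in R 4.3.3 (filterByExpr, TMM factors, robust quasi-likelihood, Benjamini-Hochberg threshold 0.05). Population comparisons had the sample as a block. DESeq2 1.42.0 was an alternative. Genes of the rule were left out of counts. Shares carried Wilson intervals and were compared by exact permutation (scipy 1.17.1). Doublets were scored with Scrublet in scanpy 1.11.5 and not removed in the main analysis. Scripts were tested on simulated data. The members, the 23 gene lists and the tests were chosen with earlier results of these data known. Named were the called members of the lists (at most 12 a list), the 15 largest rises and 10 largest falls against other endothelial cells, up to 10 each way after injury, and the 5 genes most like BMX, the rises and falls averaging 20 CPM or more where higher. FOS, which this rule does not name, and the injury values of genes named in another comparison were chosen after their values were seen. Of the 10 falls, 1 is not reported here. A depth of 358048 to 788239 UMIs per arterial-like sum limits the precision of low genes. Alternatives covered the gate, mitochondrial limit, doublets, normalization, filter, tool, block and each sample left out.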

Additional observations from a re-analysis of the deposited data

Results flagged for a closer look

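The injury difference (log2, injured minus normal) in arterial-like cells minus that in other endothelial cells passed the edgeR test of the difference itself in 63 genes. Of the genes that belong to the lists, it was the larger one for CCL2 (2.51), ESM1 (3.19), UNC5B (2.29), VCAM1 (2.00), ID1 (1.05), ZFP36 (0.95), LAMB1 (1.37), CD300LG (1.47), CXCR4 (2.65), ACTG2 (2.73), HES1 (0.75), ATF3 (0.80), COL4A1 (1.05) and BTG2 (0.82), and the smaller one for FABP5 (-2.20) and CD36 (-4.07). ID1, a target of BMP signalling, stood in the arterial-like cells at 691 CPM in Normal_1, 567 in Normal_2, 966 in Injury_1 and 1324 in Injury_2, with both injured samples above both normal ones, and in the other endothelial cells at 448, 383, 288 and 416 CPM. CD36, a fatty acid transporter of capillaries, stood at 34.3, 1.63, 2.79 and 2.20 CPM in the arterial-like cells, where Normal_1 alone was high. CXCR4, a chemokine receptor of sprouting cells, rested on 3, 9, 2 and 24 UMIs, and ACTG2, a smooth muscle actin, stood at 12.7, 14.7, 50.3 and 22.0 CPM. ACTG2 is among the genes that mark the members with mural or urothelial transcripts, which were 23.5% of the members in Injury_1. The term was not refitted without those cells, so their part in the ACTG2 call was not tested. ZFP36, ATF3 and BTG2 are also genes of the dissociation response, whose part in these differences was not tested. Several of these calls rest on 1 library. Without Injury_2, CXCR4 fell to 0.72 (edgeR adjusted p = 0.97), and the calls of HES1 (0.75) and BTG2 (0.84) were lost. Without Normal_2, the calls of ACTG2 (1.32), COL4A1 (0.58), CD300LG (1.07) and BTG2 (0.73) were lost. Without Normal_1, those of CD36 (-2.90), ATF3 (0.49) and HES1 (0.50) were lost. Without Injury_1, those of ACTG2 (2.18), CD300LG (1.09), CD36 (-3.73), COL4A1 (0.83), LAMB1 (1.13), ZFP36 (0.82), ATF3 (0.69), BTG2 (0.73) and HES1 (0.69) were lost. The calls of CCL2, ESM1, FABP5, ID1, UNC5B and VCAM1 held without each library, and that of UNC5B held in all 8 alternatives. Against the KDR/ESM1 cells alone, ID1 fell to 0.17 and its call was lost (edgeR adjusted p = 0.95). Alternatives that choose cells by ESM1 are not read for ESM1 itself.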

How the results depend on the processing

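The difference in the arterial-like share of endothelial cells (0.256 percentage points) turned to -0.804 with at least 1 UMI of BMX plus ATP2A3. It turned to -0.205 without cells with mural or urothelial UMIs, to -0.963 without Normal_2 and to -0.861 without Injury_2. Leaving out 1 sample gave -0.963 to 1.48. The difference was 0.713 with cells thinned to 2000 UMIs and 0.609 at most 10% mitochondrial UMIs. The 2 genes called after injury became 72 with no filter on low counts, 13 with DESeq2, 0 with at least 1 UMI (395 genes at an unadjusted p under 0.05), 0 at most 10% mitochondrial UMIs, and 1 each without high doublet scores, without mural or urothelial UMIs and without KDR/ESM1-leading members, and leaving out 1 sample gave 11 to 222. With the replicate number as a replicate block the count was 3 and the share difference 0.256. Same-numbered samples had a correlation of deviations of 0.0763 over 4963 genes. With 2 samples a condition, the deviations of 1 sample mirror those of the other, so this is a single value. It cannot tell whether same-numbered samples share more than a number, and the labels do not say. Without the block, the 963 genes against other endothelial cells became 269, the 1152 against SELP/SELE cells 411 and the 612 against KDR/ESM1 cells 115. The last count was 356 with DESeq2 and 369 to 576 without 1 sample (403 without Normal_1, 369 without Normal_2). The 63 differing injury differences became 21 with DESeq2, 41 against KDR/ESM1 cells alone and 55 to 109 without 1 sample (109 without Normal_1), and BTG2 turned to -0.18 against KDR/ESM1 cells alone (edgeR adjusted p = 0.95). Of the named genes, the call held in every alternative run for 0 of 2 after injury, 38 of 79 against other endothelial, 28 of 55 against SELP/SELE and 14 of 43 against KDR/ESM1 cells, and 1 of 16 for the difference of differences. Alternatives that compare with 1 neighbour or leave out KDR/ESM1-leading members were chosen after seeing the data, and the cause of these shifts was not tested. Few cells per sample limit what can be detected in low genes.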
